A study of Mus musculus with 16 samples.

Results

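In all, 10 symbols of axon sorting and guidance molecules were looked up among the array's features, and 9 had a feature: Kirrel2, Kirrel3, Epha5, Efna5, Efna3, Sema3a, Nrp2, Plxna1 and Robo2. Nrp1 was not analysed here. They were chosen by gene symbol, out of 19572 features with a gene symbol, and each had 1 feature. Expression was measured on 16 Clariom S arrays, a 1-colour Affymetrix array for mouse messenger RNA, in units of log2 signal. The arrays formed 4 groups of 4: odor arrays titled GFP−, odor arrays titled GFP+, vehicle arrays titled GFP− and vehicle arrays titled GFP+. All mice were C57BL/6 of both sexes, 7 to 12 weeks old, with the S100a5-tauGFP reporter, in which the promoter of S100a5, a gene raised by activity in olfactory sensory neurons (OSNs), drives tau-tagged GFP. They spent 40 h alone in clean air chambers, and from 26 h on received undecanal and bourgeonal together, or only filtered air as vehicle, for 10 s every 20 min. Olfactory mucosa was dissociated and sorted by fluorescence, each array holding RNA of 1 fraction from 3 pooled mice, so that 8 pools gave both fractions.

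The sorting labels conflict. On every array the cell type characteristic names the opposite GFP status to the title, and the titles are followed here. S100a5 itself was higher in the fraction titled GFP−, by 1.31 ± 0.20 log2 units in odor pools and 1.00 ± 0.20 in vehicle pools (SE, limma, adjusted p = 1.6e-04 and 0.0019), which goes against the titles. All fraction differences below are titled GFP− minus titled GFP+, and read as fluorescent minus non-fluorescent cells if the characteristics are right.

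The axon of an OSN must find its target glomerulus in the olfactory bulb, and axons with the same odorant receptor converge there. Kirrel2 and Kirrel3 are adhesion proteins of the immunoglobulin family that bind their own kind on neighbouring axons. EphA5 is a receptor tyrosine kinase, and ephrin-A5 and ephrin-A3, the products of Efna5 and Efna3, are its membrane-bound ligands; their contact repels axons. In mouse OSNs, Kirrel2 and Epha5 are known as genes raised by neuronal activity and Kirrel3 and Efna5 as their complementary partners. Semaphorin 3A is a secreted repellent read through neuropilin 1 and plexin A1, neuropilin 2 is the receptor part for semaphorin 3F, and Robo2 is a receptor for the Slit repellents. These last systems order OSN axons along the axes of the bulb.

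The upstream sequences of the 3 members whose signals differed between the fractions are shown, Kirrel2 and Epha5 with 1 sign of the difference and Sema3a with the other. Each is the 250 bases before the gene's start in RefSeq, build GRCm38.p6, written 5′ to 3′ on the gene's strand. Of the 9 members, Kirrel3 and Plxna1 had no entry. Capitals mark matches, on either strand, to any of 4 motifs: the cyclic AMP response element TGACGTCA, its shorter core TGACG, the EBF motif CCCNNGGG and the homeodomain motif TAATTA. The core lies within the full element, so that they overlap.
Kirrel2 (chr7:30457516-30457765, minus strand): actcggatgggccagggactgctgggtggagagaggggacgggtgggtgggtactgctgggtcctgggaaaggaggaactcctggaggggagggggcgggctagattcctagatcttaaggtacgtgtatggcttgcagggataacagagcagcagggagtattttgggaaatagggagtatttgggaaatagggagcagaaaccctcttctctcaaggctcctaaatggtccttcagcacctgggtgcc
Epha5 (chr5:84417383-84417632, minus strand): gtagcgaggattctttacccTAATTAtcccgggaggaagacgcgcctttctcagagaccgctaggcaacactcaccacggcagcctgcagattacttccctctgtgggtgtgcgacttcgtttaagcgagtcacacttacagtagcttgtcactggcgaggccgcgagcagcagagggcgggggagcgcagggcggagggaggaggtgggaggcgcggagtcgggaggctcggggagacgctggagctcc
Sema3a (chr5:13396534-13396783, plus strand): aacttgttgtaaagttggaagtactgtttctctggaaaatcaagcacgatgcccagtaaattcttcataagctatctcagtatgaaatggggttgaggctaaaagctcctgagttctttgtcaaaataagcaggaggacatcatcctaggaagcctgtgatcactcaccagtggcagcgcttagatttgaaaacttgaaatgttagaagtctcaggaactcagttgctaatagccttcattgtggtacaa
The Epha5 window held 1 match, to TAATTA, starting at base −230 relative to the gene's start. The Kirrel2 and Sema3a windows held none of these letters. Of 32851 windows of this length, 4.84% held TAATTA, 1.55% TGACGTCA, 17.8% TGACG and 11.8% CCCNNGGG.

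In all, 8 of the 9 members were above background on all 16 arrays, and only Sema3a lay near it. A feature counted as above background when it exceeded the 95th percentile of the array's 23 background probe sets, a limit of 6.87 to 7.41 log2 units. The median signal over tested features was 6.81 on average in either group titled GFP−, against 7.11 in odor and 7.21 in vehicle arrays titled GFP+. The median fraction difference over all features was 0.14 in odor and 0.13 in vehicle pools, and shifting all arrays to 1 common median of these features (median-centred below) moved it to 0.44 and 0.54. Shifting them to 1 common median of the olfactory receptors (receptor-centred below) moved it to −0.32 and −0.14. The fractions also differed in their cells. With both treatments the titled GFP− cells had less of all 11 markers of neutrophils, 12 of 12 of other leukocytes, 9 of 9 of cycling cells, 6 of 6 of microvillar cells and ionocytes and 7 of 12 of immature OSNs. Some of these lay below background on all arrays of both fractions. They were Aif1 and Cx3cr1 of the leukocytes, Cdk1 and Birc5 of the cycling cells and Chat of the microvillar cells. In odor pools the same held for C1qa and Cd3e of the leukocytes. Of 7 sustentacular cell markers 5 were lower in odor and 4 in vehicle pools, and of 6 basal cell markers 3 in each. With both treatments all 6 basal cell markers lay below background on arrays titled GFP−, and 5 on those titled GFP+. Of 15 mature OSN markers, 5 were higher in odor and 4 in vehicle pools and none was lower. All 5 activity-dependent OSN genes, S100a5 and Kirrel2 among them, were higher with both treatments. Neutrophil markers lay below background on all arrays titled GFP− for 10 of 11 genes in odor and 11 of 11 in vehicle pools. Their summed signal was 8.96 to 9.95 on odor arrays titled GFP−, against 18.4 to 19.5 on odor arrays titled GFP+ (log2). In vehicle pools it was 8.91 to 9.35 in the titled GFP− fraction, against 18.5 to 19.8 in the titled GFP+ fraction. For other leukocytes it was 8.91 to 10.2 against 14.7 to 16.7 in odor pools, and 9.21 to 9.50 against 15.3 to 17.0 in vehicle pools. For immature OSN markers, the sums were 16.3 to 16.7 against 16.5 to 17.0 in odor pools, and 16.5 to 16.7 against 16.9 to 17.2 in vehicle pools. Of 11 endothelial and mesenchymal markers, all lay below background on both odor groups and on vehicle arrays titled GFP−, and 10 on vehicle arrays titled GFP+. The 4 markers of ensheathing glia were below background on every array. The part of these other cells in the results was not tested. In such bulk samples, fewer cells of a type and less RNA per cell cannot be told apart.

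**Figure D1:**
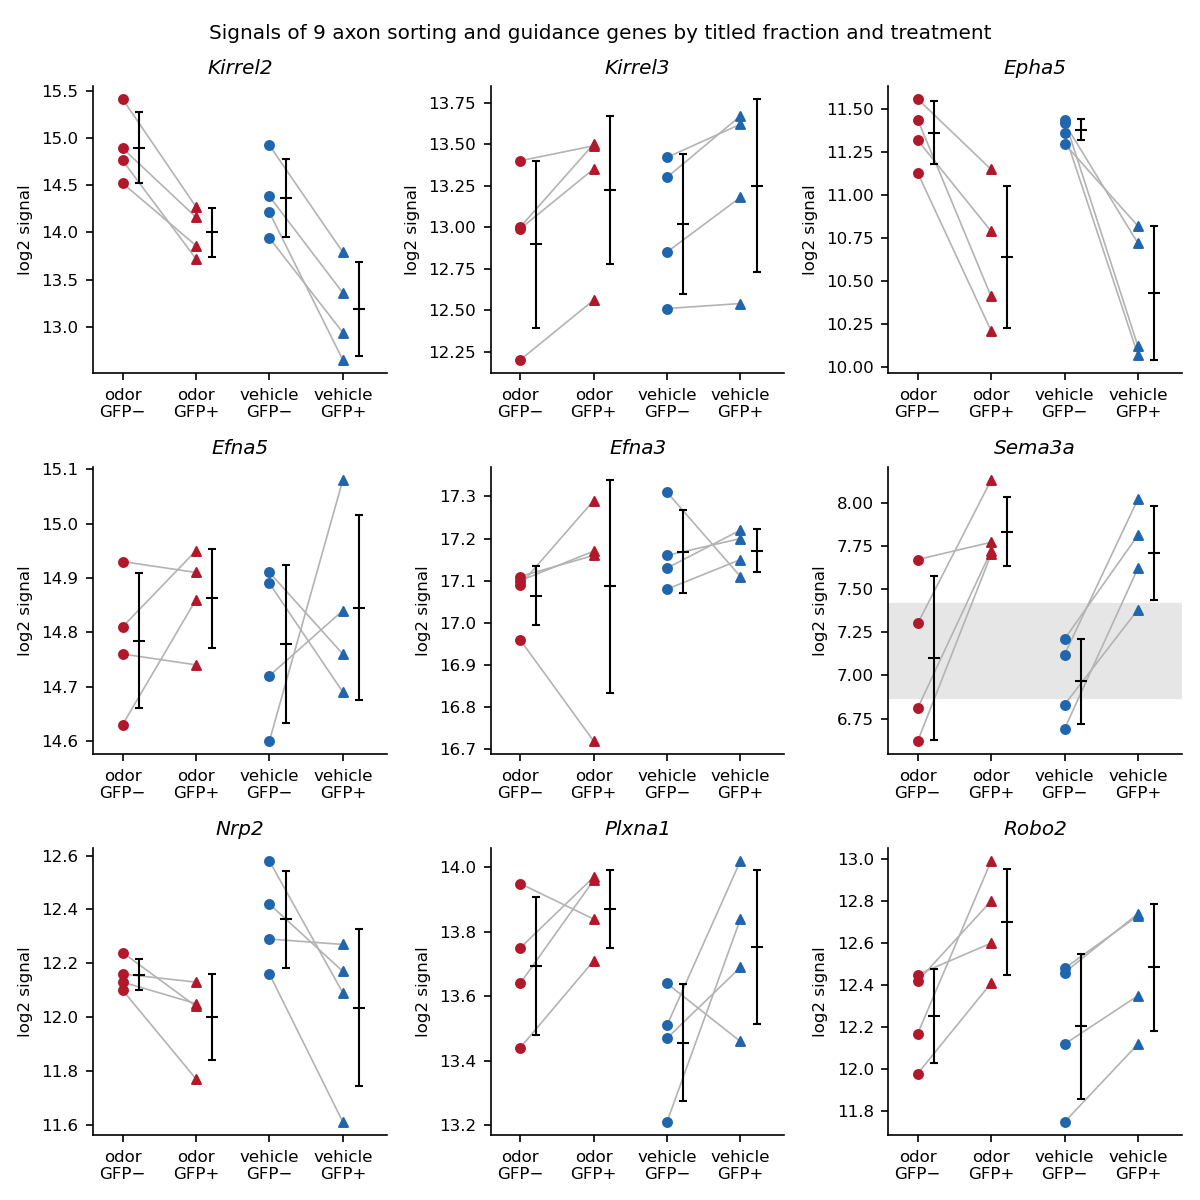
Log2 signal of the 9 members on each array, in 4 titled groups of 4 arrays. Points are arrays, grey lines join the fractions of a pool, and black bars give the mean ± SD; the grey band in the Sema3a panel is the range of the background limits, 6.87 to 7.41. Kirrel2 and Epha5 sit higher in the titled GFP− arrays of every pool and Sema3a lower.

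In the comparison of the fractions, Kirrel2 and Epha5 were higher and Sema3a was lower in the cells titled GFP−, after odor as after vehicle. Thus 3 of the 9 members passed an adjusted p of 0.05 (limma, Benjamini-Hochberg over all 19572 features) in odor pools, where 22.2% of all features passed (12.2% higher and 9.98% lower), and the same 3 in vehicle pools, where 16.9% passed (7.05% higher and 9.82% lower). The median difference over the members was −0.08 in odor and −0.07 in vehicle pools, against 0.14 and 0.13 over all features. Within pools, 6 of 9 members had a fraction difference of 1 sign in all 8 pools, 3 higher and 3 lower, against 27.4% of all features (15.9% higher and 11.5% lower).

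Kirrel2 had 15.41, 14.52, 14.89 and 14.76 log2 units on odor arrays titled GFP−, against 14.27, 13.86, 14.16 and 13.72 on odor arrays titled GFP+ (replicates 1 to 4). On vehicle arrays it had 14.92, 13.94, 14.38 and 14.21 in the titled GFP− fraction, against 13.79, 12.94, 13.36 and 12.65 in the titled GFP+ fraction. The fractions did not overlap with either treatment, a separation that 24.5% of all features showed in odor pools (14.2% higher and 10.3% lower) and 23.4% in vehicle pools (12.3% higher and 11.1% lower). The difference was 0.90 ± 0.26 in odor pools (SE, adjusted p = 0.020), or 1.86-fold, and 1.18 ± 0.26 in vehicle pools (adjusted p = 0.0038), or 2.27-fold. Within pools it lay between 0.67 and 1.57. In odor pools the call was lost without odor replicate 1, 3 or 4, at adjusted p up to 0.0714. On receptor-centred arrays it was lost in both treatments (0.43 and 0.91, adjusted p = 0.498 and 0.204).

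Kirrel3, the relative of Kirrel2 that marks complementary axons, had the opposite sign and a smaller difference. It had 12.20, 13.40, 12.99 and 13.00 log2 units on odor arrays titled GFP−, against 12.56, 13.49, 13.35 and 13.50 on odor arrays titled GFP+. In vehicle pools the values were 12.51, 13.42, 12.85 and 13.30 in the titled GFP− fraction, against 12.54, 13.62, 13.18 and 13.67 in the titled GFP+ fraction. The groups overlapped widely, since pools differed among themselves by more than the fractions did, yet the titled GFP− signal was the lower of the pair in all 8 pools. The differences of −0.33 ± 0.30 in odor and −0.23 ± 0.30 in vehicle pools did not pass (adjusted p = 0.468 and 0.640), although on receptor-centred arrays Kirrel3 passed in odor pools (−0.79, adjusted p = 0.031). Averaged over both treatments and fitted to the 8 within-pool differences, a comparison added after seeing the data, Kirrel3 differed by −0.28 ± 0.08 (adjusted p = 0.026). In that comparison 5 of 9 members passed, 2 higher and 3 lower, against 38.5% of all features, 24.3% higher and 14.2% lower. Without the pool as block the same average did not pass (adjusted p = 0.319), nor did it on median-centred arrays, where it was 0.07 (adjusted p = 0.453). It was also lost without odor replicate 3 or 4 or vehicle replicate 2, 3 or 4, at adjusted p up to 0.0671. In every pool the fraction difference of Kirrel2 exceeded that of Kirrel3, by 0.76 to 1.93 log2 units with a median of 1.27. That order follows from their opposite signs in all 8 pools and is no separate result.

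**Figure D2:**
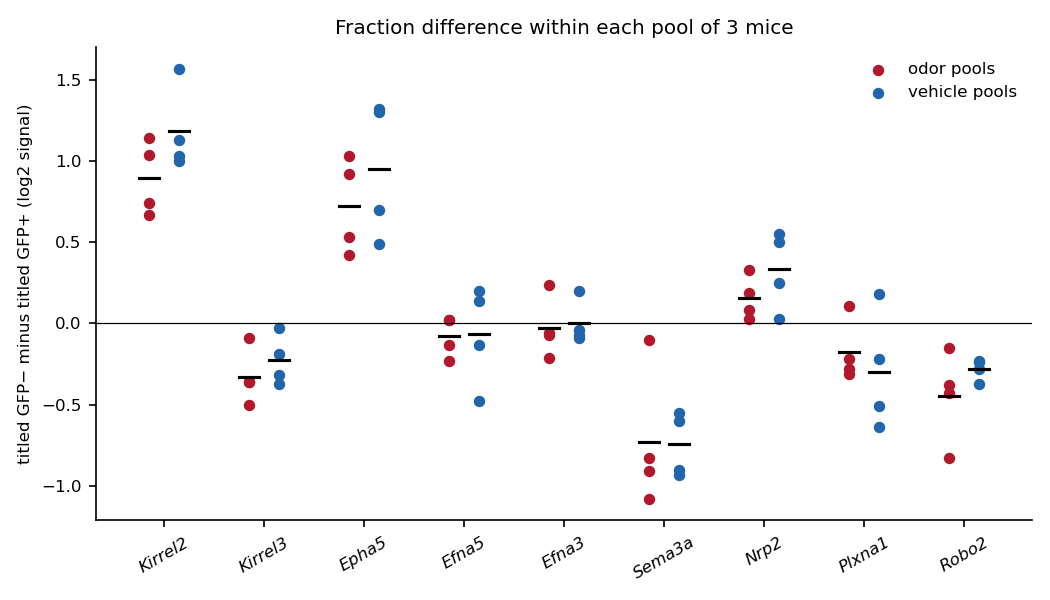
Titled GFP− minus titled GFP+ log2 signal within each of 8 pools for the 9 members, odor pools left of vehicle pools; black bars are means of 4 pools. Kirrel2, Epha5 and Nrp2 lie above 0 in all 8 pools and Kirrel3, Sema3a and Robo2 below, while Efna5 and Efna3 straddle 0.

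Epha5 had 11.32, 11.44, 11.13 and 11.56 log2 units on odor arrays titled GFP−, against 10.79, 10.41, 10.21 and 11.15 on odor arrays titled GFP+. The vehicle values were 11.44, 11.42, 11.36 and 11.30 in the titled GFP− fraction, against 10.12, 10.72, 10.07 and 10.82 in the titled GFP+ fraction. The vehicle groups did not overlap, while in odor pools the lowest titled GFP− array lay just under the highest titled GFP+ array. This EphA receptor was higher in the titled GFP− fraction by 0.72 ± 0.21 in odor pools (adjusted p = 0.019), or 1.65-fold, and by 0.95 ± 0.21 in vehicle pools (adjusted p = 0.0035), or 1.93-fold. Its signal in vehicle arrays titled GFP− was tight (SD 0.06, against 0.39 in those titled GFP+, n = 4 each). The call in odor pools was lost without odor replicate 2 or 3, at adjusted p up to 0.0998. Receptor-centred arrays ended it in both treatments (0.26 and 0.68, adjusted p = 0.563 and 0.162).

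Neither ephrin-A ligand passed. Efna5, which encodes ephrin-A5, had 14.81, 14.76, 14.93 and 14.63 log2 units on odor arrays titled GFP−, against 14.95, 14.74, 14.91 and 14.86 on odor arrays titled GFP+. On vehicle arrays it had 14.89, 14.91, 14.72 and 14.60 in the titled GFP− fraction, against 14.69, 14.76, 14.84 and 15.08 in the titled GFP+ fraction. The groups overlapped, and 4 pools went each way. The differences were −0.08 ± 0.12 in odor and −0.07 ± 0.12 in vehicle pools (adjusted p = 0.686 and 0.744), with 95% intervals of −0.34 to 0.18 and −0.33 to 0.19. Efna3 stood between 16.7 and 17.3 on all arrays and differed by −0.02 ± 0.13 in odor and −0.00 ± 0.13 in vehicle pools (adjusted p = 0.920 and 0.993). On median-centred arrays both ligands had positive differences and passed in vehicle pools (0.34 for Efna5 and 0.40 for Efna3, adjusted p = 0.035 and 0.015). On receptor-centred arrays neither passed in odor or in vehicle pools, but their averages over treatments within pools passed as lower (−0.44 for Efna5 and −0.38 for Efna3). Without centring these averages were −0.07 and −0.01 and did not pass (adjusted p = 0.565 and 0.915). In all 8 pools the fraction difference of Epha5 exceeded that of Efna5, by 0.56 to 1.42 log2 units with a median of 0.93. As Efna5 went either way, this restates the rise of Epha5 and is no separate result.

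Sema3a, the secreted repellent, went the other way. It had 6.81, 7.67, 6.62 and 7.30 log2 units on odor arrays titled GFP−, against 7.72, 7.77, 7.70 and 8.13 on odor arrays titled GFP+. In vehicle pools the values were 6.83, 7.21, 6.69 and 7.12 in the titled GFP− fraction, against 7.38, 7.81, 7.62 and 8.02 in the titled GFP+ fraction. The measured groups did not overlap, but in the titled GFP− fraction only 2 of 4 odor and 1 of 4 vehicle arrays exceeded background. With the background limit in place of lower values, the highest titled GFP− array stood at 7.67 against a lowest titled GFP+ array of 7.70 in odor pools, and at 7.41 against 7.38 in vehicle pools, where the groups then overlapped. The differences of the measured signals, without that replacement, were −0.73 ± 0.21 in odor and −0.74 ± 0.21 in vehicle pools (adjusted p = 0.022 and 0.024). With the limit in place of lower values, Sema3a was at least 1.31-fold lower in the titled GFP− fraction of odor pools. In that of vehicle pools it was at least 1.38-fold lower. These bounded differences were not tested. The call on the measured signals was lost in vehicle pools without any 1 vehicle replicate and in odor pools without odor replicate 1, 3 or 4 (adjusted p up to 0.107). It was also lost after quantile normalization (−0.52 in odor and −0.38 in vehicle pools, adjusted p = 0.080 and 0.203) and on median-centred arrays (−0.43 and −0.34, adjusted p = 0.095 and 0.158). Averaged over treatments within pools the measured difference was −0.74 ± 0.12 (adjusted p = 8.7e-04).

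Nrp2, the neuropilin of the semaphorin 3F pathway, had 12.16, 12.24, 12.10 and 12.13 log2 units on odor arrays titled GFP−, against 12.13, 12.04, 11.77 and 12.05 on odor arrays titled GFP+. The vehicle values were 12.16, 12.58, 12.42 and 12.29 in the titled GFP− fraction, against 11.61, 12.09, 12.17 and 12.27 in the titled GFP+ fraction. The titled GFP− array was the higher of the pair in all 8 pools, by 0.03 to 0.55, although the groups overlapped. The differences of 0.16 ± 0.15 in odor and 0.33 ± 0.15 in vehicle pools did not pass (adjusted p = 0.471 and 0.144), nor did the average within pools of 0.24 ± 0.09 (adjusted p = 0.054). On median-centred arrays Nrp2 passed with both treatments (0.46 in odor and 0.73 in vehicle pools, adjusted p = 0.027 and 0.0019) and on average (0.60, adjusted p = 3.8e-04), while on receptor-centred arrays its average was −0.12 (adjusted p = 0.421). The average also passed without vehicle replicate 4 (adjusted p = 0.039) and with 10306 features above background on at least 4 arrays (adjusted p = 0.030).

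Plxna1, the plexin co-receptor of semaphorin 3A, had 13.75, 13.44, 13.95 and 13.64 log2 units on odor arrays titled GFP−, against 13.97, 13.71, 13.84 and 13.96 on odor arrays titled GFP+. On vehicle arrays it had 13.64, 13.47, 13.21 and 13.51 in the titled GFP− fraction, against 13.46, 13.69, 13.84 and 14.02 in the titled GFP+ fraction. There were 6 pools with the lower signal in the titled GFP− fraction and 2 with the higher. The differences of −0.18 ± 0.15 in odor and −0.30 ± 0.15 in vehicle pools did not pass (adjusted p = 0.416 and 0.190), nor did the average within pools of −0.24 ± 0.11 (adjusted p = 0.103). That average passed on receptor-centred arrays (−0.60, adjusted p = 0.0015) and without vehicle replicate 1 (−0.32, adjusted p = 0.041), and was 0.11 on median-centred arrays (adjusted p = 0.364).

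Robo2, a Slit receptor, had 11.98, 12.17, 12.42 and 12.45 log2 units on odor arrays titled GFP−, against 12.41, 12.99, 12.80 and 12.60 on odor arrays titled GFP+. In vehicle pools the values were 11.75, 12.46, 12.12 and 12.48 in the titled GFP− fraction, against 12.12, 12.74, 12.35 and 12.73 in the titled GFP+ fraction. As with Kirrel3, the groups overlapped while every pool had the lower signal in the titled GFP− fraction, by 0.15 to 0.83. The differences of −0.45 ± 0.20 in odor and −0.28 ± 0.20 in vehicle pools did not pass (adjusted p = 0.112 and 0.353). Robo2 passed in odor pools once pools entered the fit as a fixed block (adjusted p = 0.030), though not as a random one (adjusted p = 0.061). It also passed there on receptor-centred arrays (−0.91, adjusted p = 0.0079), and its average within pools was −0.36 ± 0.09 (adjusted p = 0.011). That average did not pass without the block (adjusted p = 0.051), and it was −0.01 on median-centred arrays (adjusted p = 0.908).

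Whether the odorant mixture altered these genes was asked within each fraction. No member passed in titled GFP− or in titled GFP+ arrays, where 0% of all features passed in limma. The 4 odor and 4 vehicle arrays overlapped for all 9 members in both fractions, while they did not for 2.97% of all features in titled GFP− arrays (1.51% higher and 1.46% lower) and 5.27% in titled GFP+ arrays (2.23% higher and 3.05% lower). At an unadjusted p under 0.05 there were 0 members in titled GFP− arrays, against 4.11% of all features, and 1 of 9, Kirrel2, in titled GFP+ arrays, against 10.3%. In the interaction, the fraction difference with odor minus that with vehicle, 0 members and 0% of all features passed, and 0 members had an unadjusted p under 0.05, against 3.78% of all features. The interaction was −0.28 ± 0.36 for Kirrel2 (95% interval −1.06 to 0.49), −0.23 ± 0.29 for Epha5 and 0.02 ± 0.30 for Sema3a (adjusted p = 0.9997 each).

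Kirrel2 had the highest odor difference of the 9 members. The odor minus vehicle difference was 0.53 ± 0.26 in titled GFP− arrays (adjusted p = 0.999) and 0.82 ± 0.26 in titled GFP+ arrays (adjusted p = 0.352), with 95% intervals of −0.02 to 1.08 and 0.27 to 1.36. Its group means ran in the order odor titled GFP− (14.9 ± 0.38), vehicle titled GFP− (14.4 ± 0.41), odor titled GFP+ (14.0 ± 0.26) and vehicle titled GFP+ (13.2 ± 0.50, SD, n = 4 each), and each overlapped the next in range. Between arrays of the same replicate number the odor signal was the higher in all 8 pairs, as for 1.12% of all features. That share counts only features higher with odor. The 8 pairs are not independent, as both fractions of a pool come from the same mice. The pair differences were 0.49 to 0.58 in titled GFP− and 0.48 to 1.07 in titled GFP+ arrays. With the replicate number as block the differences still did not pass (adjusted p = 0.769 and 0.111), nor did the average over both fractions (0.67 ± 0.22, adjusted p = 0.663, or 0.301 with the block).

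**Figure D3:**
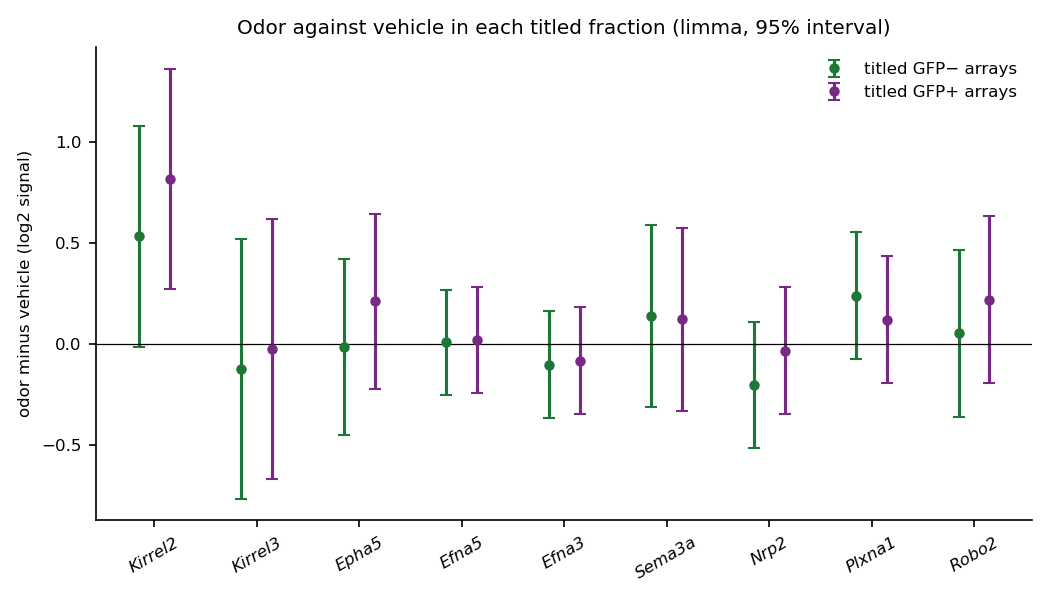
Odor minus vehicle log2 signal of the 9 members in titled GFP− and titled GFP+ arrays, with 95% intervals from limma (4 arrays against 4). Kirrel2 has the highest points, 0.53 and 0.82, and only its interval in titled GFP+ arrays lies wholly above 0; no member passed after adjustment.

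For the other 8 members the odor difference ranged from −0.21 for Nrp2 to 0.24 for Plxna1 in titled GFP− arrays and from −0.08 for Efna3 to 0.22 for Robo2 in titled GFP+ arrays. Epha5, which shared the fraction difference of Kirrel2, stood at −0.02 ± 0.21 with odor in titled GFP− arrays and 0.21 ± 0.21 in titled GFP+ arrays (adjusted p = 0.999 and 0.781). The 95% intervals were −0.45 to 0.42 and −0.23 to 0.64.

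The wider families of guidance and adhesion genes were examined through 90 other genes with a feature, in 8 lists. In odor pools 8 passed as higher and 6 as lower in cells titled GFP−, 15.6% in all against 22.2% of all features. In vehicle pools 11 passed as higher and 5 as lower, 17.8% against 16.9%. Of the 90, 11 passed with both treatments, or 12.2%, against 12.5% of all features. In each treatment 4 of the genes that passed lay below background on all arrays of both fractions, so no fold is given for them: Draxin and Nrcam in both, Efnb2 and Ephb6 in odor pools, and Cntn6 and Epha4 in vehicle pools. Above background, 8 were higher and 2 lower in odor pools, and 10 were higher and 2 lower in vehicle pools. With odor against vehicle, 0 of 90 passed in either fraction. At an unadjusted p under 0.05 there were 7 in titled GFP− arrays, where 4.11% of all features had one, and 5 in titled GFP+ arrays, where 10.3% had. The highest odor difference in the lists was that of Pcdh10, a delta protocadherin, at 1.74 ± 0.31 in titled GFP− and 1.69 ± 0.31 in titled GFP+ arrays (adjusted p = 0.766 and 0.300). Its odor and vehicle arrays did not overlap in either fraction. With the replicate number as a fixed block it passed in both (adjusted p = 0.0022 and 0.0031). A random block on the pool, which joins both fractions of the same mice, is another pairing, and there Pcdh10 passed in neither (adjusted p = 0.470 and 0.308). The replicate number was not fitted as a random block.

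Of 11 other ephrin-A ligands and EphA receptors, Epha7, a receptor related to Epha5, was higher in the titled GFP− fraction by 0.63 ± 0.19 in odor and 0.70 ± 0.19 in vehicle pools (adjusted p = 0.025 and 0.016). Of 18 other semaphorins 3 were higher in odor pools, and 4 were higher and 1 lower in vehicle pools. Sema3e, a secreted semaphorin, was higher by 1.11 ± 0.19 and 1.13 ± 0.19, Sema6c, a membrane-bound one, by 0.86 ± 0.16 and 1.01 ± 0.16, and Sema7a, which carries a membrane lipid anchor, by 0.60 ± 0.12 and 0.77 ± 0.12 (adjusted p up to 0.0017). Sema4g, another membrane-bound one, differed by −0.77 ± 0.21 in vehicle pools (adjusted p = 0.017). Sema3e, Sema6c and Sema7a thus had the opposite sign to Sema3a. Among 8 other plexins, Plxnb3 was higher by 0.79 ± 0.21 in odor and 1.17 ± 0.21 in vehicle pools (adjusted p = 0.014 and 8.0e-04). Plxnd1 was lower in odor pools, at −0.68 ± 0.22 or at least 1.37-fold (adjusted p = 0.034), with 2 of 4 titled GFP− arrays above background. Slit1, a ligand of Robo2, was higher in vehicle pools by 0.43 ± 0.13 (adjusted p = 0.027), lost without any 1 vehicle replicate (adjusted p up to 0.129).

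**Figure D4:**
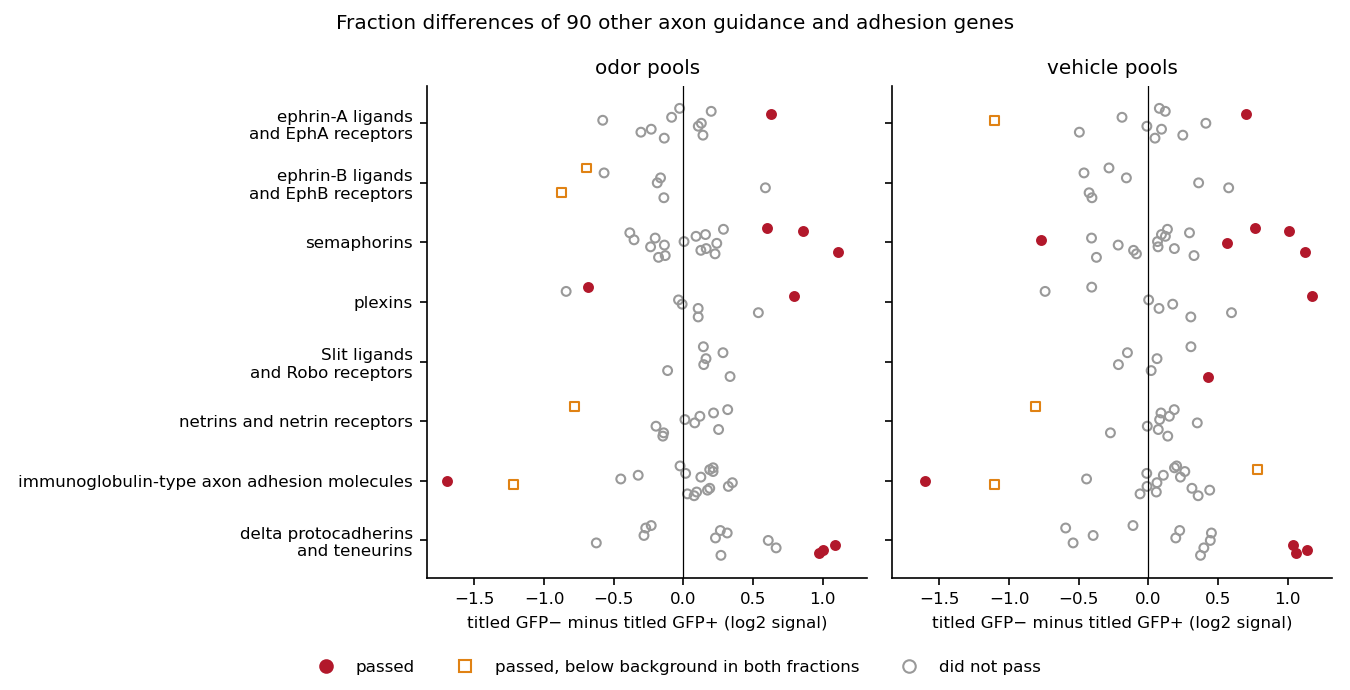
Titled GFP− minus titled GFP+ log2 signal of 90 other guidance and adhesion genes in 8 lists, odor pools left and vehicle pools right. Filled circles passed (adjusted p under 0.05), open squares passed but lay below background in both fractions, and open circles did not pass; 3 delta protocadherins stand near 1 toward the right of both panels and Alcam farthest left.

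Among 17 immunoglobulin-type adhesion molecules, Alcam differed most, at −1.69 ± 0.21 in odor and −1.60 ± 0.21 in vehicle pools (adjusted p = 1.9e-05 and 3.2e-05). It encodes an adhesion protein of growing axons that leukocytes carry too, and the leukocyte markers were lower in the same arrays; their part was not tested. Of 13 delta protocadherins and teneurins 3 were higher with each treatment: Pcdh7 by 0.97 ± 0.25 in odor and 1.06 ± 0.25 in vehicle pools, Pcdh8 by 1.00 ± 0.29 and 1.13 ± 0.29, and Pcdh10 by 1.09 ± 0.31 and 1.04 ± 0.31 (adjusted p up to 0.030). The list had a median difference of 0.27 in odor and 0.37 in vehicle pools. Calls of Epha7, Sema4g, Plxnb3 (in odor pools), Plxnd1, Pcdh7 (in odor pools), Pcdh8 and Pcdh10 were lost without at least 1 pool, at adjusted p up to 0.213, while Sema3e, Sema6c, Sema7a and Alcam passed without any 1 pool. On receptor-centred arrays Epha7, Sema7a, Plxnb3, Pcdh8 and Pcdh10 did not pass with either treatment, nor did Sema3e, Sema6c and Pcdh7 in odor pools or Slit1 in vehicle pools. Sema4g in vehicle pools and Plxnd1 in odor pools did not pass on median-centred arrays (−0.36 and −0.38, adjusted p = 0.122 and 0.119), nor Plxnd1 after quantile normalization (−0.48, adjusted p = 0.099). Of 7 ephrin-B ligands and EphB receptors 2 were lower in odor pools and 0 passed in vehicle pools, and of 10 netrins and netrin receptors 1 was lower with each treatment.

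Likeness to the 3 members that passed was measured as the root mean square difference between profiles over the 16 arrays, each centred on its own mean. Nearest to Kirrel2 were Vmn1r101 (0.32 log2 units) and Socs5 (0.34), nearest to Epha5 were Itpkb (0.17) and Brinp2 (0.21), and nearest to Sema3a were Sft2d2 (0.20) and Ppp3r1 (0.20). The median over all features was 0.73, 0.52 and 0.60 for these 3 members. Kirrel2 and Epha5 were 0.61 apart, above the median of 0.52 for Epha5 but below that of 0.73 for Kirrel2. Epha5 was the nearest member to Kirrel2, while Nrp2 (0.39) was the nearest to Epha5. The measure also depends on each gene's own spread around its mean, 0.71 for Kirrel2 and 0.50 for Epha5. Sema3a was closer to Robo2 (0.35) and Kirrel3 (0.39) than to any other member.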

How the data were processed

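The deposited values were log2 array signals of 28846 entries per array on 16 arrays, made by the authors with Affymetrix Expression Console, per the submitters' processing notes. The unit was read from the values. How they were background-corrected, normalized and summarized is not given in the sources used here. No sample column was left unused (0). A differing normalization would shift the fraction differences most, as the fractions differ in their array medians. Groups follow the titles. One mean per group was fitted over all 4 groups (limma 3.58.1, R 4.3.3), which tested 5 comparisons with Benjamini-Hochberg adjustment over 19572 features with a gene symbol; the averages over treatments and over fractions were added after seeing the data. The method was tested on simulated data for the vehicle fraction comparison only, with independent noise that leaves out the correlation within pools. The members, lists and rule for named genes were chosen with earlier results of these data known. The rule named all members, up to 3 genes per direction of each family list and comparison by smallest adjusted p, and the 2 nearest profiles of each member that passed in 1 of the 5 comparisons.

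With 24 mice in pools of 3 and both fractions sorted, same-numbered fractions of a treatment share their mice. Deviations from group means correlated at 0.10 to 0.34 across features within the 8 pools, and at 0.15 to 0.55 between odor and vehicle arrays of the same number and fraction, so both pairings were used as replicate blocks. Pools held different mice. The number of arrays limits the precision. Alternatives were quantile normalization, centring on the median of tested features or of olfactory receptors, a filter on dim features, an intensity trend, the compared arrays alone, blocks and leaving out each pool. Promoter windows came from RefSeq (GRCm38.p6).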

Additional observations from a re-analysis of the deposited data

Results flagged for a closer look

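In 36 groups of 4 arrays (9 members in 4 groups), 3 arrays stood apart from the other 3 of their group, and chance flags about 1 in 20 such groups. Kirrel3 was low on odor titled GFP+ replicate 1, at 12.6 log2 units. Efna3 was low on odor titled GFP− replicate 1, at 17.0, within a group that spanned 16.96 to 17.11. Sema3a was high on odor titled GFP+ replicate 4, at 8.13.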

How the results depend on the processing

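Of the 9 members 3 passed in each fraction comparison. In vehicle pools 5 passed on median-centred arrays and 1, Sema3a, on receptor-centred arrays. In odor pools 3 passed under each: Kirrel2, Epha5 and Nrp2 on median-centred arrays, and Kirrel3, Robo2 and Sema3a on receptor-centred arrays. Leaving out a pool left 2 to 3 in vehicle pools and 0 to 3 in odor pools, where 0 passed without odor replicate 3 and 1, Epha5, without odor replicate 1 or 4. For the average within pools, 5 passed, against 8 on receptor-centred arrays, 3 without the block, and 4 to 6 without a pool. The median-centring turned Kirrel3 to 0.18, Efna5 to 0.34, Efna3 to 0.40, Robo2 to 0.12 and Plxna1 to 0.11 in vehicle pools. In odor pools it turned Efna5 to 0.22, Efna3 to 0.28 and Plxna1 to 0.12, and on average Kirrel3 to 0.074, Efna5 to 0.28, Efna3 to 0.34 and Plxna1 to 0.11. The receptor-centring turned Nrp2 to −0.31 in odor pools and −0.12 on average. Without a pool, Efna5 ranged from −0.15 to 0.072 in vehicle pools, and Efna3 from −0.069 to 0.028 in vehicle pools, −0.11 to 0.039 in odor pools and −0.056 to 0.018 on average. Over all features, 3302 passed in vehicle pools (13985 and 2150 under the centrings, 2138 without vehicle replicate 1) and 4338 in odor pools (11192, 2776, and 2689 without odor replicate 1). Higher and lower calls numbered 2385 and 1953 in odor and 1380 and 1922 in vehicle pools, against 9658 and 1534 and 12456 and 1529 on median-centred arrays, 343 and 2433 and 344 and 1806 on receptor-centred arrays, and 2930 and 1956 and 2643 and 1863 after quantile normalization. The average fraction difference called 7536 features, 16616 on median-centred arrays, 6984 (721 higher and 6263 lower) on receptor-centred arrays and 6965 without the block. The replicate number as a fixed block called 1 feature, Pcdh10, in each fraction's odor comparison. Among the members, fixed blocks changed only the call of Robo2 in odor pools. The cause of these changes was not tested. No alternative made a member pass the odor or interaction comparisons. Signals near background limit Sema3a.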
